A study of Mus musculus with 384 samples.

Results

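Entpd1 and Nt5e, 2 of the 23420 gene symbols measured, were taken by symbol and followed across single T cells from B16F10 melanomas, a transplantable mouse tumour line. Entpd1 encodes CD39, a membrane enzyme that turns extracellular ATP and ADP into AMP. Nt5e encodes CD73, a surface enzyme held by a lipid anchor that turns AMP into adenosine. Adenosine damps T cells mainly through the adenosine receptor Adora2a. In tumours CD39 is known as a marker of regulatory T cells and of chronically stimulated CD8 cells, and the cytokine IL-27 is known to raise it on dendritic cells.

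The cells came from C57BL/6 mice labelled IL27raKO or wild type, with 1 plate of CD4 cells and 1 plate of CD8 cells for each genotype. Smart-seq2, which amplifies full-length transcripts of cells sorted into wells and counts no molecules, gave FPKM, a level per transcript length and library size. Cells with at least 1000 genes at 1 FPKM or more were kept, which left 78 labelled knockout CD4 cells, 74 wild-type CD4 cells, 77 labelled knockout CD8 cells and 72 wild-type CD8 cells and took out 75 of all single-cell wells. WT4 and KO4 in the titles were read as 1 source per genotype, so genotype, animal and plate cannot be told apart and no genotype difference was tested. The titles of 2 plates say CD4 although their treatment label mentions CD8+ cells alone, and the titles were followed.

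The targeted gene did not separate the genotype labels. Il27ra was detected in 47.4% of labelled knockout CD4 cells and 36.5% of wild-type CD4 cells, and in 57.1% of labelled knockout CD8 cells and 51.4% of wild-type CD8 cells. The labels do not name the deleted exons, and reads from the remaining exons would still count, so the plates are called labelled knockout throughout. Lineage markers followed the titles: Cd4 was found in 71 of 78 and 66 of 74 cells of the CD4 plates, against 1 of 77 and 0 of 72 cells of the CD8 plates. Cd8a was found in 0 of 78, 2 of 74, 63 of 77 and 61 of 72 cells in the same order of plates. The median number of detected genes was 2091, 2047, 2243 and 2530.5 in that order, and FPKM hold no read counts, so the depth of each cell is unknown. Judged from the steps between low values, 1 FPKM in a transcript of 2 kb corresponded to about 1 read (median 0.928 FPKM per read). The estimate ran from 0.234 to 21.5 FPKM per read over cells, so 1 FPKM is not the same number of reads in every cell. It is rough, since a median of 51.3% of values lay within 0.1 of a whole read.

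Entpd1 (ENSMUSG00000048120.16) lies on the plus strand at chr19:40612366-40741602 in GENCODE M21 on GRCm38, the assembly behind the authors' mm10, with 11 annotated transcripts. Nt5e (ENSMUSG00000032420.8) lies on the plus strand at chr9:88327197-88372092 with 4. No exon of either gene overlapped an exon of another gene in the table, so their values do not rest on shared positions. RefSeq gives Entpd1 a pair of separate starts, which the gene-level values add together. The 250 bases before each are shown because Entpd1 has these alternative promoters and is the gene called in the Foxp3 comparison below, in lower case with the GCGTG core bound by the aryl hydrocarbon receptor in capitals (GRCm38.p6, plus strand).
Entpd1 upstream start, chr19:40612116-40612365: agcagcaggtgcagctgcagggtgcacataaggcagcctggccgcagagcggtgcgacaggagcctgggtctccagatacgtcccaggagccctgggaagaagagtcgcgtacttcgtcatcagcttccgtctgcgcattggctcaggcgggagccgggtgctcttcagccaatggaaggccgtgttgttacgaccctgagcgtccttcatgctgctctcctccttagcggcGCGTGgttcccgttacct
Entpd1 downstream start, chr19:40659520-40659769: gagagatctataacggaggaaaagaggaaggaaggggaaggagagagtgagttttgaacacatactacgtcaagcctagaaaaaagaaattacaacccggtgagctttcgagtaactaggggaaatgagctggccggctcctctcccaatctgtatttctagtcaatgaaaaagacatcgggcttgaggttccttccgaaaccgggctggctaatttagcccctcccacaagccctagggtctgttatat
The upstream window held 62.4% G and C with 18 CG pairs and 1 GCGTG at position -18 from the start, and the downstream window held 47.2% with 8 CG pairs and no GCGTG. On both strands, 28.2% of 32851 RefSeq promoter windows of the same kind held GCGTG, so the match is a common one. Nt5e, whose bases are not shown, had GCGTG in its window as well, at position -138. TTCAAAG or AACAAAG (TCF/LEF, in 9.17% of windows), TGANTCA (AP-1, 6.75%), TTCNNNGAA (STAT, 7.02%), ACGTG (HIF, 16.6%) and TGACGTCA (CRE, 1.55%) were in neither Entpd1 window.

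Entpd1 was most often detected in wild-type CD8 cells. It was found in 15 of 78 labelled knockout CD4 cells, or 19.2% (exact Clopper-Pearson 95% interval 11.2 to 29.7). It was found in 18 of 74 wild-type CD4 cells, or 24.3% (15.1 to 35.7). Among CD8 cells the shares were 10 of 77, or 12.99% (6.41 to 22.6), with the knockout label and 36 of 72, or 50% (37.98 to 62.02), in wild type. The order of shares was therefore wild-type CD8, wild-type CD4, labelled knockout CD4 and labelled knockout CD8. The interval of the first overlapped none of the other 3, which all overlapped one another. Intervals here cover counting error over cells and not the spread between animals.

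In those cells the lowest, median and highest FPKM were 1.09, 267.7 and 768 on the labelled knockout CD4 plate and 3.93, 206.9 and 425 on the wild-type CD4 plate. On the CD8 plates they were 74.9, 201.3 and 1216 with the knockout label and 5.73, 184.5 and 618 in wild type. The ranges overlapped on all 4 plates, whereas the share of cells with Entpd1 ran from 12.99% to 50%. The means over all kept cells were 60.98, 45.1, 45.2 and 101.8 FPKM in the same order of plates. A single cell held 34.96% of all Entpd1 FPKM of the labelled knockout CD8 plate, whose mean was 29.8 FPKM without it. The population wells, 1 library of many cells per plate, had 108.9, 134.5, 40.05 and 211.96 FPKM, so they too were highest for wild-type CD8. In a population well, fewer cells with the transcript and less transcript per cell cannot be told apart.

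Nt5e showed another order. It was detected in 25 of 78 labelled knockout CD4 cells, or 32.1% (21.9 to 43.6), and in 11 of 74 wild-type CD4 cells, or 14.9% (7.66 to 25.0). It was detected in 18 of 77 labelled knockout CD8 cells, or 23.4% (14.5 to 34.4), and in 4 of 72 wild-type CD8 cells, or 5.56% (1.53 to 13.6). Neighbouring plates in the order labelled knockout CD4, labelled knockout CD8, wild-type CD4 and wild-type CD8 had overlapping intervals. Wild-type CD8 lay below both labelled knockout plates with no overlap.

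The cells with Nt5e also varied widely in level. Their lowest, median and highest FPKM were 1.61, 137.6 and 680 for labelled knockout CD4 and 69.8, 381.9 and 1966 for wild-type CD4. They were 1.06, 104.4 and 914 for labelled knockout CD8 and 1.6, 40.3 and 230 for wild-type CD8. The mean over all kept cells was 64.2, 85.9, 41.97 and 4.34 FPKM in the same order of plates. The mean was highest for wild-type CD4, where 1 cell held 30.9% of the sum, and was 60.1 FPKM there without it, below labelled knockout CD4. In wild-type CD8, 1 cell held 73.7% of the sum. The population wells held 135.1, 142.4, 66.6 and 3.65 FPKM, with wild-type CD8 lowest. Neither gene had any value in the 4 no-cell wells, and neither was detected in the 75 single-cell wells left out by the filter, which allows a share of up to 4%.

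**Figure D1:**
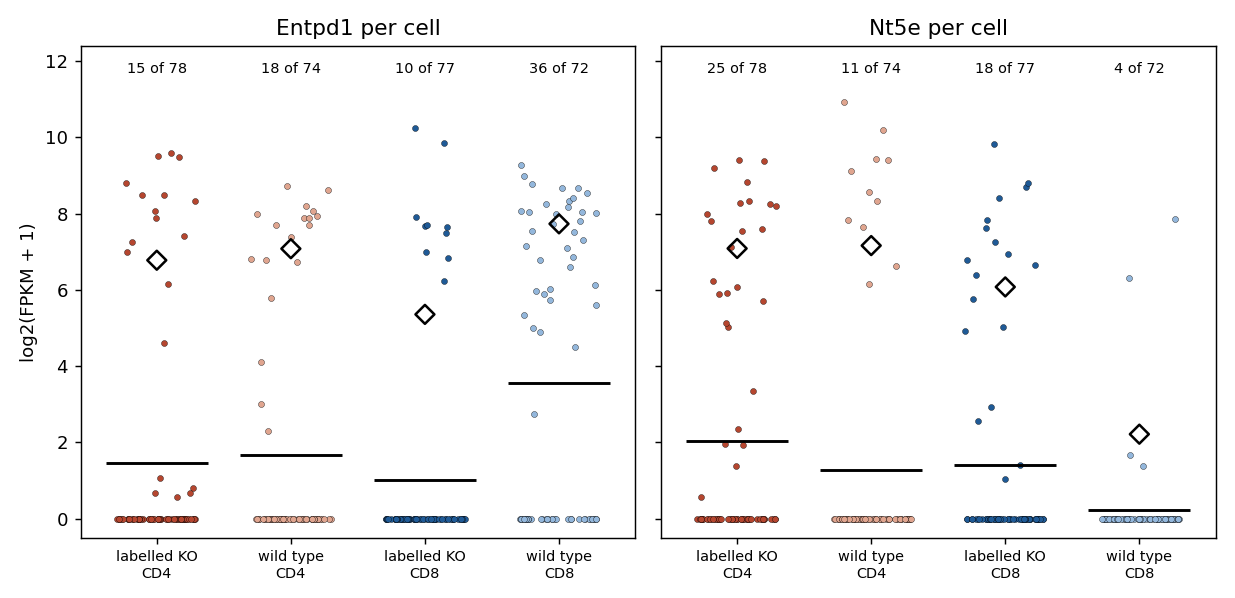
Entpd1 (left) and Nt5e (right) in each kept cell as log2(FPKM + 1), by plate, with the number of cells at 1 FPKM or more above. Points are cells spread sideways for legibility, bars are means over all kept cells and open diamonds are the population wells. Entpd1 is found in 36 of 72 wild-type CD8 cells and Nt5e in 4 of them.

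Between the CD8 plates the 2 enzymes moved in opposite directions. The mean of log2(FPKM + 1) for Entpd1 was 1.02 in labelled knockout CD8 cells and 3.56 in wild-type CD8 cells, a difference of -2.54 log2. For Nt5e it was 1.41 in labelled knockout CD8 cells and 0.24 in wild-type CD8 cells, a difference of 1.18 (means over 77 and 72 cells, with no replicate plate). Of 8117 genes in at least 10% of the cells of either plate, 9.19% were lower by 1 log2 or more in the labelled knockout cells and 2.07% were higher by as much, and the median gene differed by -0.22. Differences on this scale carry the share of cells with the gene and understate changes of low genes. The population wells differed by -2.38 for Entpd1 and 3.86 for Nt5e. Pairing the cells of both plates by detected genes gave -2.51 and 1.197 with 57 cells a plate.

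Melanoma markers also differed between the CD8 plates. Dct, a melanin enzyme, was detected in 1.30% of labelled knockout CD8 cells and 15.3% of wild-type CD8 cells, and any of 11 myeloid markers in 23.4% and 31.9%. After removing the 31 labelled knockout and 32 wild-type CD8 cells with a melanoma, myeloid, B-cell, stromal or CD4 marker at 50 FPKM or more, the differences were -3.75 for Entpd1 and 1.42 for Nt5e. Both were at least as large as with all cells, and Entpd1 was then found in 3 of 46 labelled knockout and 24 of 40 wild-type CD8 cells. Other genes shifted too: 1871 of 8117 were then lower by 1 log2 or more, against 746 with all cells, and no more were higher by as much. The median gene differed by -0.42, against -0.22. The part of the marked cells was not tested. Immediate early genes, which are known to respond to tissue handling, were also higher with the knockout label, 7 of 10 by 1 log2 or more between the CD8 plates and 9 of 10 between the CD4 plates, and their part was not tested. Of the 14 co-inhibitory and dysfunction genes, 10 were lower by as much in labelled knockout CD8 cells, like Entpd1, and of 12 naive and memory genes 7 of the 11 that passed the filter were higher, like Nt5e, and 1 was lower, the costimulatory receptor Cd27 (-2.03).

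Between the CD4 plates the differences were small or depended on how cells were averaged. Entpd1 differed by -0.20 log2 (mean 1.47 in labelled knockout CD4 cells and 1.67 in wild-type CD4 cells) and Nt5e by 0.77 (2.05 and 1.27). Neither reached 1 log2, a size that 2.53% of 7063 genes passed upward and 2.51% downward. With arithmetic mean FPKM the signs turned, to 0.43 for Entpd1 and -0.41 for Nt5e. The Nt5e share was 17.2 points higher in labelled knockout CD4 cells, whereas its median level in cells that held it was lower there, 137.6 against 381.9 FPKM in wild-type CD4 cells.

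CD4 and CD8 cells were compared over the 4 plate means with limma, which fits all genes at once, with genotype as a block. Neither enzyme passed the threshold of 0.05 for the Benjamini-Hochberg adjusted p, whereas 7.44% of 8427 genes did (1.12% higher in CD4 and 6.32% lower). Nt5e was 0.83 ± 0.34 log2 (SE, n = 2 plates each) higher in CD4 cells, with adjusted p = 0.11 by limma, and was higher in CD4 in both genotypes (0.63 in labelled knockout, 1.04 in wild type). Entpd1 differed by -0.72 ± 0.40 log2 with adjusted p = 0.28 by limma. Its difference had opposite signs, 0.45 in labelled knockout and -1.89 in wild type. Without the labelled knockout CD8 plate and the block, both passed (Nt5e 1.42, adjusted p = 0.027; Entpd1 -1.99, adjusted p = 0.013, limma), and without the wild-type CD8 plate instead the Entpd1 difference was 0.55. With 1 residual degree of freedom, limma took its spread from all genes together, so its p-values measure neither the spread of these 2 genes nor that between mice.

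Within CD4 cells, Entpd1 went with Foxp3, the transcription factor of regulatory T cells. Foxp3 was detected in 37 of 78 labelled knockout and 27 of 74 wild-type CD4 cells, and in 2 of 77 and 0 of 72 CD8 cells (0 of 72 allows a share of up to 4.17%). Entpd1 was found in 10 of 37 Foxp3-detected cells (27.03%) and 5 of 41 others (12.2%) on the labelled knockout plate. On the wild-type plate it was found in 14 of 27 Foxp3-detected cells (51.9%) and 4 of 47 others (8.51%). Of the cells with Entpd1, 10 of 15 labelled knockout and 14 of 18 wild-type CD4 cells held Foxp3. Foxp3 exons overlap those of the neighbours Ccdc22 and Ppp1r3f, so some of its calls are uncertain without strand.

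The Foxp3 difference of Entpd1 was called. With plate as a block and 4 class means, Entpd1 was 2.05 ± 0.52 log2 (SE, n = 2 classes each) higher in Foxp3-detected cells, with adjusted p = 0.0051 by limma over 7063 genes, of which 3.89% were called, 3.06% higher and 0.835% lower. The difference was 1.16 on the labelled knockout plate and 2.93 on the wild-type plate. This fit also had 1 residual degree of freedom. Its SE and p-values rest on the spread of all genes together, not on that of Entpd1 or between mice. The call was lost in 9 of 14 alternatives, among them no block (adjusted p = 0.15), cells paired on detected genes (1.43, adjusted p = 0.26) and Foxp3 called at 10 FPKM (2.24, adjusted p = 0.16). The difference stayed positive in all 14. Median detected genes were 2076 in Foxp3-detected and 2095 in other cells of the labelled knockout plate, and 2316 and 1966 on the wild-type plate.

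Nt5e was not called by Foxp3 detection. It was found in 13 of 37 Foxp3-detected cells (35.1%) and 12 of 41 others (29.3%) with the knockout label, and in 3 of 27 (11.1%) and 8 of 47 (17.02%) in wild type. Its fitted difference was -0.42 ± 0.50 log2 with adjusted p = 0.79 by limma. The sign was negative on both plates, -0.20 and -0.65. The excess of Nt5e in labelled knockout CD4 cells was 1.08 log2 among Foxp3-detected cells and 0.63 among the others. For Entpd1 the same genotype difference was -1.45 among Foxp3-detected cells and 0.32 among the others.

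The other genes of the same Foxp3 fit give the scale of these values. Of 15 regulatory T cell genes, 13 of the 14 that passed the filter on low values were called higher, Foxp3 itself among them since it made the classes. Il2ra, the high-affinity interleukin-2 receptor chain, differed by 4.10 log2 and Tnfrsf4, the costimulatory receptor OX40, by 7.09, both more than Entpd1. Of 14 co-inhibitory and dysfunction genes, 11 passed the filter, 7 were called higher and 1 lower. Lag3, an inhibitory receptor, differed by 2.49 and Cxcr6, a chemokine receptor of tissue-resident cells, by -4.34.

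**Figure D2:**
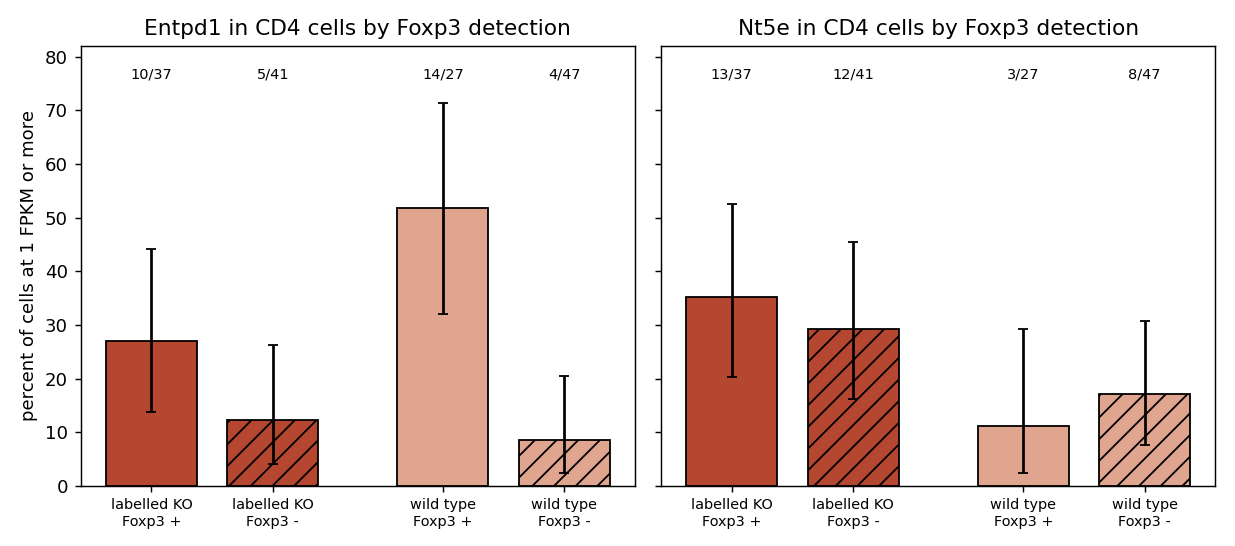
Percent of CD4 cells with Entpd1 (left) and Nt5e (right) at 1 FPKM or more, by Foxp3 detection (+ at 1 FPKM or more) on the labelled knockout and wild-type plates. Bars are shares, lines are exact 95% intervals over cells and the fractions are cell numbers. Entpd1 reaches 51.9% in wild-type Foxp3-detected cells. The Entpd1 intervals of both classes overlap on the labelled knockout plate and not on the wild-type plate. The Nt5e intervals of both classes overlap on both plates.

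Cells with both enzymes, which could in principle carry ATP through to adenosine alone, were few. Both were detected in 4 of 78 labelled knockout CD4 cells, 1 of 74 wild-type CD4 cells, 2 of 77 labelled knockout CD8 cells and 2 of 72 wild-type CD8 cells. The product of the shares on each plate would give 4.81, 2.68, 2.34 and 2 cells in the same order, so co-detection was at or below it on all 4 plates. Over all plates, 9 cells (2.99%) held both, 70 held Entpd1 alone, 49 held Nt5e alone and 57.5% of cells held neither. The 4 labelled knockout CD4 cells with both had 322.7, 70.2, 731 and 357.2 FPKM of Entpd1 and 34.2, 457, 312.2 and 137.6 FPKM of Nt5e in the same order. All 4 also held Foxp3, as did the wild-type CD4 cell with both. Transcripts missed at this depth lower such counts, so absence of the second enzyme in a cell is not shown. Of the 9 cells, 7 held 2 or more markers of other cell types or of the opposite lineage, a rule that also took in 48.7% to 68.1% of all kept cells per plate because it counts Tyr, detected in 97.4% to 100% of cells. Without cells with such a marker at 50 FPKM or more, both enzymes were found in 4 of 56, 1 of 48, 0 of 46 and 1 of 40 cells in the same order of plates.

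**Figure D3:**
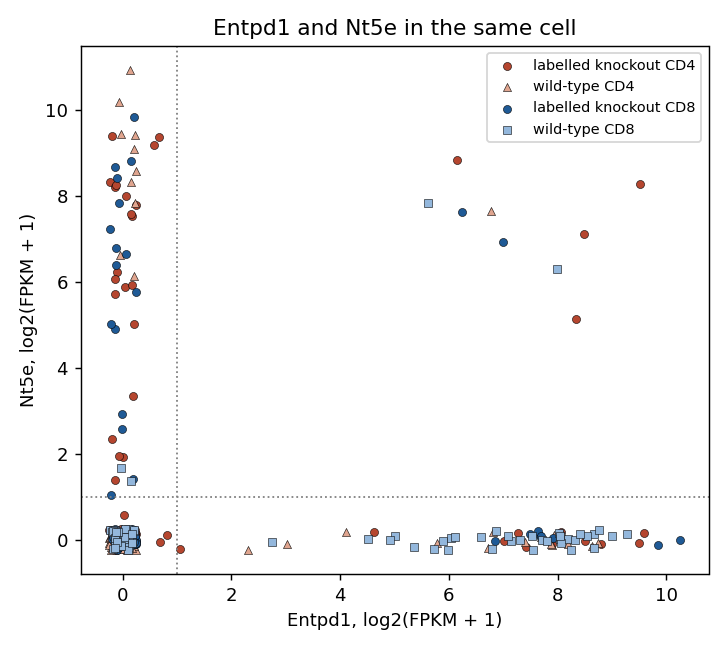
Entpd1 against Nt5e in each kept cell, both as log2(FPKM + 1), by plate, with values of 0 spread around 0 for legibility. Dotted lines mark 1 FPKM. The 9 cells beyond both lines lie apart from the cells with 1 enzyme alone along the axes.

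Entpd1-detected CD8 cells held more co-inhibitory genes. Of 14 co-inhibitory and dysfunction genes, labelled knockout CD8 cells held a mean of 6.6 ± 3.17 (SD over 10 cells) with Entpd1 and 3.19 ± 1.99 (67 cells) without it. Wild-type CD8 cells held 8.97 ± 3.05 (36 cells) with Entpd1 and 4.08 ± 3.47 (36 cells) without it. In wild-type CD8 cells Pdcd1, the receptor PD-1, was found in 88.9% of Entpd1-detected and 36.1% of other cells. Havcr2, the inhibitory receptor TIM-3, was found in 69.4% and 22.2%, and Tox, a transcription factor of exhausted cells, in 75% and 27.8%. The cytotoxic protease genes Gzmb and Gzmk were found in 88.9% against 22.2% and in 83.3% against 16.7%. All these shares were higher with Entpd1.

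Memory and homing genes ran the other way in wild-type CD8 cells. Tcf7, the transcription factor TCF1 of naive and stem-like cells, was found in 2.78% of Entpd1-detected and 50% of other cells. Il7r, the interleukin-7 receptor chain of long-lived cells, was found in 0 of 36 Entpd1-detected cells, which allows up to 8.33%, and in 41.7% of the others. S1pr1, the tissue egress receptor, was found in 8.33% and 50%. Lef1, a relative of Tcf7, was alike in both (44.4% and 41.7%).

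The number of detected genes moved with the Entpd1 call. Wild-type CD8 cells with Entpd1 had a median of 3014 detected genes, against 2202 in those without, and over 7646 genes the median share was 11.1 points higher with Entpd1. In 25 pairs matched on detected genes that median was 4 points, the median of the 14 co-inhibitory genes was 24 points, against 43.1 over all these cells, and that of the 12 naive and memory genes was -18, against -13.9. Gzmk was then found in 84% of Entpd1-detected and 24% of other cells, and Tcf7 in 4% and 56%. Any myeloid marker was seen in 27.8% of Entpd1-detected and 36.1% of other wild-type CD8 cells, with summed levels up to 9350 and 2134 FPKM, and Lyz2, Csf1r, Cd68 and C1qb were at 0 in the cells without Entpd1. Any of 5 NK cell markers, of which Gzma and Eomes are also known in CD8 T cells, was seen in 52.8% and 33.3%, with summed levels up to 19481 and 683 FPKM and Ncr1 at 0 in both. On the labelled knockout CD8 plate the NK cell shares were 50% and 29.9%. The part of these markers in the result was not tested.

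The few labelled knockout CD8 cells with Entpd1 looked similar in part. Of the 14 co-inhibitory genes, 12 were found more often with Entpd1, at a median of 20.2 points against 7.16 over all 6997 genes. Over all genes 4705 of 6997 were more frequent. In 10 pairs matched on detected genes, 11 of the 14 were more frequent, against 2722 of all 6997 genes. Pdcd1 was found in 80% of the 10 Entpd1-detected and 25.4% of the 67 other cells, Havcr2 in 60% and 4.48%, and Lag3 in 70% and 17.9%. Of the 12 naive and memory genes, 5 were more frequent with Entpd1 and 7 less, at a median of -9.10 points. In the matched pairs 2 of the 12 were more frequent. Tcf7 was found in 20% and 67.2% and Ccr7, a lymph node homing receptor, in 10% and 43.3%. Il7r did not follow wild type: it was found in 70% of Entpd1-detected and 68.7% of other cells. Each of these shares with Entpd1 rests on 10 cells, and the difference between plates was not tested.

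**Figure D4:**
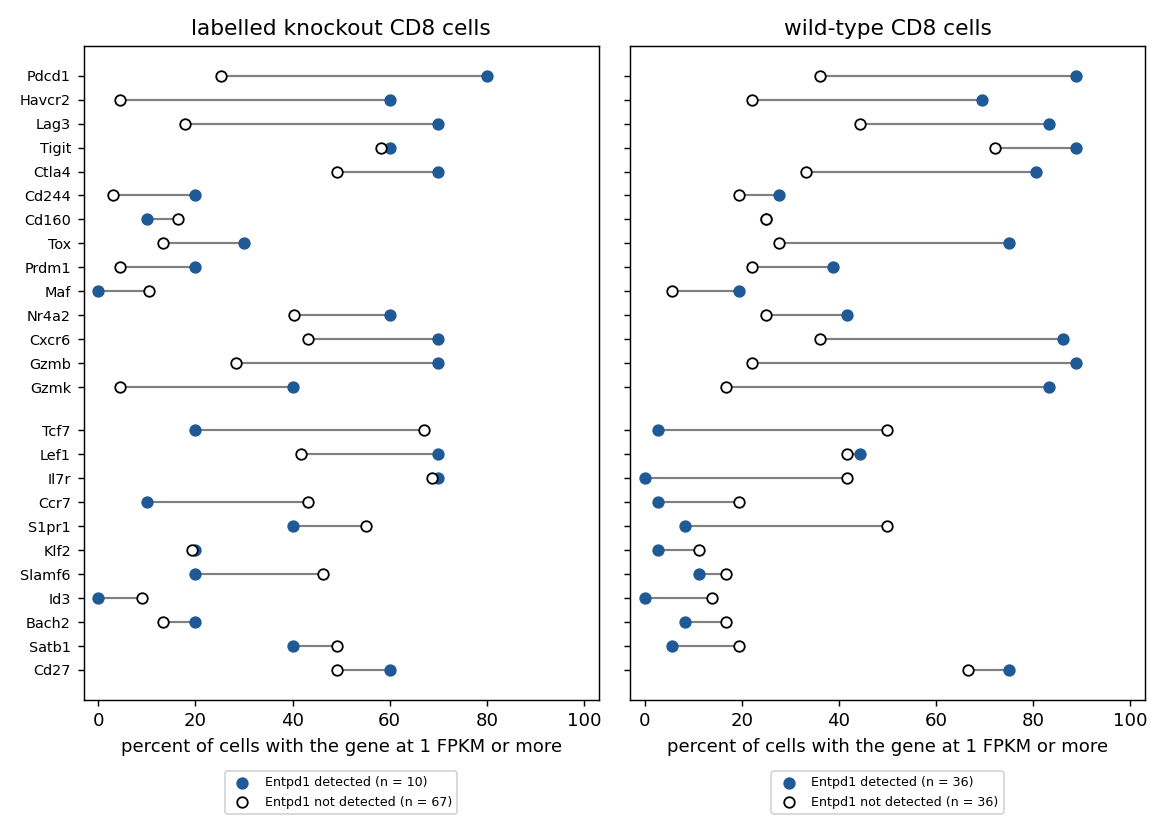
Percent of CD8 cells with each co-inhibitory or dysfunction gene (upper group) and naive or memory genes (lower group) at 1 FPKM or more, in Entpd1-detected cells (filled) and the other cells (open), on the labelled knockout plate (left) and the wild-type plate (right). Gzmk and Tcf7 lie far apart in wild type, at 83.3% against 16.7% and at 2.78% against 50%.

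In CD4 cells Entpd1 went with regulatory T cell genes. Of 15 regulatory T cell genes, 15 were found more often in Entpd1-detected cells of the labelled knockout plate and 14 of the 14 seen on the wild-type plate. Over all genes the counts were 3877 of 6330 and 4879 of 6347, and in 14 pairs matched on detected genes 14 and 11 regulatory T cell genes were higher. Il10, a suppressive cytokine, was found in 40% of Entpd1-detected and 7.94% of other labelled knockout CD4 cells, and in 44.4% and 1.79% of wild-type ones. Il2ra was found in 86.7% and 46.03% of labelled knockout cells and in 72.2% and 12.5% of wild-type cells. S1pr1 was found in 40% and 65.1% with the knockout label and in 16.7% and 64.3% in wild type.

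Within Foxp3-detected cells, 11 of 14 regulatory T cell genes were more frequent with Entpd1 and 3 less on the labelled knockout plate, and 10 were more frequent and 3 less on the wild-type plate. Over all genes 3388 of 6455 and 4906 of 7062 were more frequent. Ctla4, an inhibitory receptor, was found in 80% of cells with Entpd1 and 100% of those without it with the knockout label, and in 100% and 84.6% in wild type. In wild type, Ikzf4 (21.4% and 30.8%), Lrrc32 (28.6% and 38.5%) and Itgae (35.7% and 38.5%) were the 3 less frequent with Entpd1. Of the 14 co-inhibitory and dysfunction genes, 9 were more frequent and 3 less with the knockout label, and 9 more and 1 less in wild type. In wild type, the share of genes more frequent with Entpd1 was thus similar in both lists and over all genes. The median gain in points was larger in both lists than over all genes. Foxp3-detected cells were not paired on detected genes, so the part of detected genes in these counts and in the shares below was not tested. With the knockout label, Lag3 was found in 70% of the 10 Foxp3-detected cells with Entpd1 and 22.2% of the 27 without it, and Gzmb in 90% and 51.9%. In wild type, Lag3 was found in 64.3% of the 14 with Entpd1 and 15.4% of the 13 without, Gzmb in 71.4% and 30.8%, Havcr2 in 64.3% and 7.69%, and Il10 in 50% and 0%. Ikzf2, the factor Helios, was alike on both plates (80% against 74.1%, and 85.7% against 76.9%). The wild-type cells with Entpd1 had more detected genes, a median of 2957.5 detected genes against 1970, whereas the labelled knockout cells had 2106 and 2076. Any myeloid marker was found in 33.3% of Entpd1-detected and 20.6% of other labelled knockout CD4 cells and in 27.8% and 19.6% of wild-type ones, with summed levels up to 40383 and 5449 FPKM, and 131347 and 4191 FPKM. Their part in these shares was not tested, and C1qa, C1qb, C1qc and Emr1 were at 0 in the labelled knockout cells. In wild-type CD4 cells, 11 of 11 myeloid markers were detected in cells with Entpd1, whereas C1qa, C1qc, Itgam and Emr1 were at 0 in those without.

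Nt5e had few companions. In labelled knockout CD8 cells, Tcf7 was found in 83.3% of the 18 Nt5e-detected and 54.2% of the 59 other cells, and Il7r in 83.3% and 64.4%. Gzmk was found in 0% and 11.9%. Of the 12 naive and memory genes, 7 were more frequent with Nt5e and 5 less, at a median of 7.35 points. Over all genes 4007 of 6997 were more frequent, at a median of 1.79 points. In 18 pairs matched on detected genes, 6 of the 12 were more frequent. In labelled knockout CD4 cells, 4 naive and memory genes were more frequent with Nt5e and 7 less, at a median of -4.53 points. In CD4 cells, Lag3 was found in 44% of Nt5e-detected and 18.9% of other labelled knockout cells but in 18.2% and 19.05% of wild-type ones. Among Foxp3-detected labelled knockout cells, Lag3 was found in 61.5% of the 13 with Nt5e and 20.8% of the 24 without it. Of the 14 co-inhibitory and dysfunction genes, 5 were more frequent with Nt5e in those cells and 7 less. Wild-type CD8 holds 4 cells with Nt5e, too few to describe.

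Across all genes, likeness to each enzyme was taken as the lower of the partial Spearman correlations (given detected genes) on the 2 plates of a cell type. For Entpd1 in CD8 cells (77 and 72 cells), the 8 highest of 4032 genes were Arsb (0.44), Nkg7 (0.36), Gem (0.35), Glrx (0.34), Gzmb (0.34), Rgs1 (0.34), Ctsd (0.34) and S100a4 (0.32). Arsb and Ctsd encode lysosomal enzymes, Nkg7 and Gzmb proteins of cytotoxic granules, and Rgs1 a brake on chemokine receptor signals. The 4 lowest were Socs3 (-0.35), Rps19 (-0.33), Tcf7 (-0.30) and Srsf2 (-0.29). The median gene had -0.07, and cells of a plate share library, depth and source. Entpd1 was detected in 10 of the 77 labelled knockout and 36 of the 72 wild-type CD8 cells. On the labelled knockout plate the other 67 cells were tied at 0. Across genes, the 2 plates' correlations with Entpd1 were themselves related at r = 0.23.

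In CD4 cells (78 and 74 cells) the genes most like Entpd1 were Glrx (0.40), Tnfrsf4 (0.36), Klrg1 (0.34), Arl5a (0.32), BC004004 (0.31), Krtcap2 (0.29), Odc1 (0.29) and Tigit (0.29). Glrx, a redox enzyme that uses glutathione, was thus among the 8 in both cell types. Klrg1 and Tigit are inhibitory receptors. Among the lowest were Gm20594 (-0.34), Ms4a4b (-0.34) and Skap1 (-0.30). Entpd1 was detected in 15 of the 78 labelled knockout and 18 of the 74 wild-type CD4 cells. The named genes depend on the cells kept: under the rule on 2 or more markers described above for co-detection, which leaves 27 labelled knockout and 23 wild-type CD8 cells and 40 and 28 CD4 cells, 1 of the 8 stayed among the top 8 in each cell type. For Nt5e no gene stood out: the highest were Ndufa8 at 0.32 in CD8, where 1 plate has 4 cells with Nt5e, and Lrmp at 0.25 in CD4. Across genes, the 2 plates' correlations with Nt5e had r = -0.02 in CD8 and r = -0.03 in CD4.

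**Figure D5:**
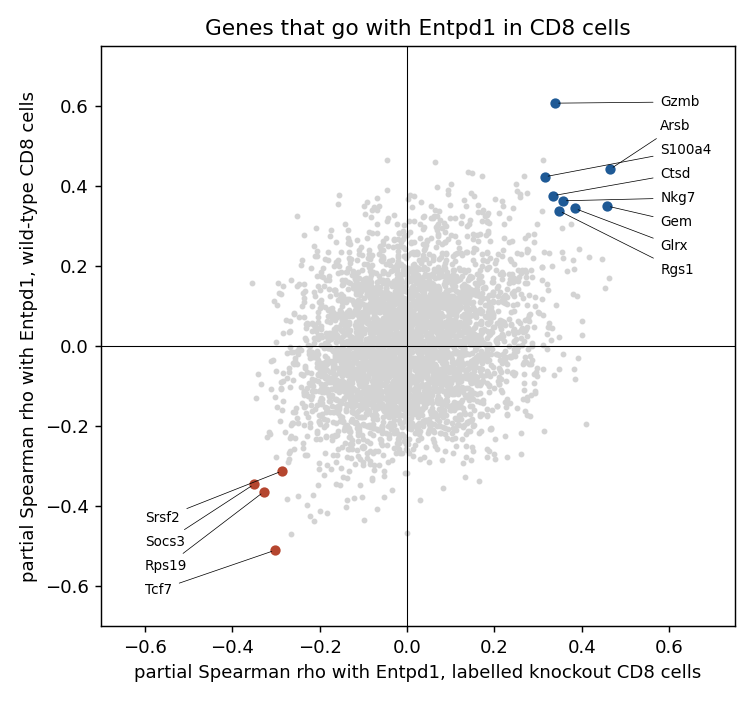
Partial Spearman correlation of each of 4032 genes with Entpd1 over labelled knockout CD8 cells (horizontal, 77 cells) and wild-type CD8 cells (vertical, 72 cells). The 8 genes most like Entpd1 (blue) and the 4 least like it (red) are named. Gzmb has 0.34 and 0.61, and Tcf7 has -0.30 and -0.51.

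Among 43 genes of extracellular nucleotide and adenosine handling, 39 were detected in at least 1 kept cell. Of the ectoenzymes, Entpd2, Entpd3, Entpd8 and Enpp3 were detected in no kept cell. Cd38, which cleaves NAD and feeds another route to AMP, was found in 15.4% of labelled knockout and 14.9% of wild-type CD4 cells, and in 20.8% of labelled knockout and 52.8% of wild-type CD8 cells. It was 1 of 4 ectoenzymes that passed the filter and the 1 called between cell types, at -1.43 log2 in CD4 relative to CD8 (adjusted p = 0.0036 by limma). That fit called 7.44% of all 8427 genes. The mean log2(FPKM + 1) of Cd38 was 0.565 in labelled knockout CD4 and 0.875 in labelled knockout CD8 cells. In wild type it was 0.774 and 3.33, so the difference between cell types was larger there. The Cd38 share followed that of Entpd1 within wild-type CD8, where Cd38 was found in 72.2% of Entpd1-detected and 33.3% of other cells.

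Adora2a, the main adenosine receptor of T cells, was found in 15.4%, 13.5%, 29.9% and 25% of cells in the order labelled knockout CD4, wild-type CD4, labelled knockout CD8 and wild-type CD8, and the other 3 adenosine receptors in at most 2.78%. Its CD4 to CD8 difference was -0.80 log2 with adjusted p = 0.15 by limma. Of 8 genes of adenosine removal and transport, 7 passed the filter and Dpp4, the surface protein that anchors adenosine deaminase, was found in 7.69%, 16.2%, 32.5% and 27.8% of cells in the same order of plates and called lower in CD4 (-1.23, adjusted p = 0.015 by limma). Of 10 genes for ATP receptors and release, 4 passed and P2rx4, an ATP-gated channel, was called higher in CD4 (0.78, adjusted p = 0.037 by limma). P2ry10 of this list is known as a lysophospholipid receptor, and it differed by 1.38 log2 between the CD8 plates and -1.20 between the CD4 plates, labelled knockout minus wild type. No gene among the 9 intracellular relatives, of which 8 passed, was called between cell types. These calls stand beside 7.44% of all genes called in the same fit. That share was 0.83% with no block, where Cd38, Dpp4 and P2rx4 were not followed. In the Foxp3 fit, which called 3.89% of all genes, no pathway gene other than Entpd1 was called.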

How the data were processed

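The authors deposited 1 table of FPKM per gene and well, with TMM scaling per the labels. Per the submitters' processing notes, Bowtie, RSEM and build mm10 were used, with no version stated. Reads shared by several genes are apportioned by RSEM, so low values can be partial reads. The table holds no counts, so no count model was used. All columns were used, and 0 columns of per-sample values were left unmapped. Plates were compared with limma 3.58.1 (R 4.3.3) on means of log2(FPKM + 1), over genes in 10% or more of the kept cells of a plate, and the fits were tested on simulated data. Shares carry exact Clopper-Pearson intervals from scipy 1.17.1. The 2 enzymes and the gene lists were chosen with earlier results of these data known. Named genes are the enzymes, the lists, and per enzyme and cell type the 8 most and 4 least like it, among genes in 20% or more of the cells of both plates. Promoter windows come from RefSeq. Of 140 list genes, 2 were found under older symbols and 2 were not matched. Alternatives changed the cell filter, detection level, pseudocount, mean, gene filter, block and matching on detected genes, left out plates or used population wells. Of the genes this rule names, 2 are not reported here.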

Additional observations from a re-analysis of the deposited data

Results flagged for a closer look

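The CD4 minus CD8 difference of Entpd1 had opposite signs in the 2 sources, 0.453 log2 in the labelled knockout source and -1.89 log2 in the wild-type source. The genotype difference of Entpd1 in CD4 cells also had opposite signs in the 2 Foxp3 classes. Labelled knockout minus wild type, it was -1.45 log2 among Foxp3-detected cells and 0.319 log2 among the other CD4 cells. With 1 plate per genotype and cell type, neither difference between differences was tested.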

How the results depend on the processing

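Of the results recomputed under the alternatives, 41 moved, 8 reversed, 9 lost a call and 2 gained one, and the others kept their direction and side of the threshold, stayed within the interval of a share, kept a count or difference within 1.5 times, or kept a median likeness within 1 SD of the 8 genes. The cause of each was not tested. The rules on markers at 50 FPKM and on Foxp3 at 10 FPKM were chosen after seeing the data. FPKM give no read depth, and 1 plate per group gives no spread between mice. Leaving out a plate or class also ended the block.

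CD4 minus CD8 for Entpd1 (-0.72) ranged from -1.99 to 0.55 when a plate was left out and was 0.38 in population wells, -0.28 in cells with 2000 or more genes, -0.34 with matched detected genes, -0.37 with arithmetic means and -1.09 without cells with 2 or more markers. Nt5e (0.83) ranged from 0.25 to 1.42 with a plate left out and was 2.31 with arithmetic means, 2.98 in population wells and 1.29 without cells with 2 or more markers. The share of genes called (7.44%) was 0.83% with no replicate block, 0.32% to 13.7% with a plate left out, 0.12% in cells with 2000 or more genes, 1.98% with arithmetic means, 0.232% without cells with 2 or more markers, 0.228% without cells with a marker at 50 FPKM, 3.44% with the 25% gene filter and 1.27% with matched detected genes. It was 0% by limma in population wells, where 1066 genes had an unadjusted p under 0.05.

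For Foxp3, Entpd1 (2.05) lost its call with no replicate block (2.05), in cells with 2000 or more genes (2.72), with arithmetic means (1.70), without cells with 2 or more markers (1.98), with matched detected genes (1.43) and with Foxp3 at 10 FPKM (2.24). It ranged from 1.32 to 2.77 with a class left out, and the 25% gene filter left no Entpd1 value. Nt5e (-0.42) was 0.23 in cells with 2000 or more genes, -0.28 in cells with 500 or more, -1.12 with arithmetic means, -0.83 without cells with 2 or more markers and -0.96 to 0.12 with a class left out. The share of genes called (3.89%) was 0.41% with no replicate block, 0.255% to 3.24% with a class left out, 0.72% in cells with 2000 or more genes, 0.042% with arithmetic means, 0.013% without cells with 2 or more markers, 0.93% without cells with a marker at 50 FPKM, 1.30% with no gene filter, 1.76% with matched detected genes and 0.24% with Foxp3 at 10 FPKM.

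Labelled knockout minus wild type in CD8 was -1.16 for Entpd1 and 3.01 for Nt5e with arithmetic means, and 3.86 for Nt5e in population wells. In CD4, Entpd1 (-0.20) was -0.11 and -0.53 in cells with 500 and 2000 or more genes, 0.43 with arithmetic means, -0.36 and -0.37 under the 2 marker rules, 0.10 with matched detected genes and -0.30 in population wells. Nt5e (0.77) was 1.34 with a pseudocount of 0.1, -0.41 with arithmetic means, 1.22 and 1.42 under the marker rules and -0.075 in population wells. The wild-type CD4 share with Entpd1 was 36.6% in cells with 2000 or more genes. Shares within their interval still moved by over 1.5 times, among them Entpd1 in labelled knockout CD8 (6.52% without cells with a marker at 50 FPKM), Nt5e in wild-type CD8 (2.78% at 10 FPKM), and both enzymes in labelled knockout CD4 (2.5%) and wild-type CD4 (3.57%) without cells with 2 or more markers. The share of genes called between CD4 and CD8 was 3.74% with no gene filter, over more genes. The share of cells with both enzymes was 0% (0 of 27) in labelled knockout and 0% (0 of 23) in wild-type CD8 cells without cells with 2 or more markers, and 0% (0 of 46) in labelled knockout CD8 cells without a marker at 50 FPKM. The median likeness of the 8 genes most like Entpd1 in CD8 was 0.398 with plain Spearman correlation. In CD4 without cells with 2 or more markers, the median was 0.201 for Entpd1, over the 5 of its 8 genes with a value. For Nt5e it was 0.0694, over 7 of 8 genes. Without those cells, 1 of the 8 genes stayed among the top 8 for each enzyme and cell type.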
